A study of Arabidopsis thaliana with 12 samples.

Results

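The JAZ (jasmonate ZIM domain) genes of Arabidopsis thaliana encode the repressors of the jasmonate response, and 10 of them were followed here in leaves held at different air humidities. JAZ1, JAZ2, JAZ3, JAZ5, JAZ6, JAZ7, JAZ8, JAZ9, JAZ10 and JAZ12 were selected by locus code among the 32833 genes of the deposited 1 h table. All 10 were found, and all 10 had a level of 1 TPM or more in 4 or more libraries, the filter that kept 17368 genes for testing. TPM is a relative abundance, the share of a gene among all transcripts after correction for length, with the same total in every library. The filter was passed by JAZ8 in exactly 4 libraries, so JAZ8 lies just inside it.

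Jasmonates are lipid-derived hormones of wounding, defence and fertility. Without the hormone, JAZ proteins bind MYC2 and related transcription factors and, through the adaptor NINJA and corepressors of the TOPLESS family, hold their targets off. The conjugate jasmonoyl-isoleucine joins JAZ proteins to the F-box receptor COI1, which marks them for breakdown. Many JAZ genes are themselves targets of the MYC factors, so that their transcripts are widely used as a readout of jasmonate signalling in leaves.

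The plants were wild type of the Col-0 accession, aged 3.5 to 4 weeks and raised in soil at 60% relative humidity, 22 °C and a 12 h day. They then stood for 1 h at 40 to 45% (low), 55 to 60% (moderate) or 95% (high) relative humidity, also at 22 °C. Leaf RNA of 4 biological replicates per humidity was sequenced as 150 bp paired ends, which gave 12 libraries. The labels name 3 chambers, 1 for each setting, so chamber and humidity cannot be told apart. Moderate humidity is close to the growth condition and served as the reference. The labels give no number of plants behind a replicate, so p-values measure the spread between these samples. In leaf RNA, fewer cells of a type and less RNA per cell cannot be told apart.

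The upstream sequences of 6 JAZ genes are printed here because the G-box, CACGTG, is the DNA element best known to bind MYC2 and its relatives. Each run is the 300 bases before the annotated start of the gene, 5′ to 3′ on the strand of the gene, from the TAIR10.1 reference genome of RefSeq, with every G-box in capitals. JAZ2 (chr1:28150447-28150746, minus strand), JAZ3 (chr3:6119407-6119706, plus strand), JAZ7 (chr2:14572730-14573029, plus strand) and JAZ8 (chr1:10596052-10596351, plus strand) are the members that hold one. JAZ6 (chr1:27276563-27276862, minus strand) and JAZ9 (chr1:26654229-26654528, plus strand) hold none, and are shown because their relative levels set the humidities apart below. The window of JAZ6 overlaps the long non-coding RNA gene AT1G09307, which was listed at 0 in all 12 libraries.
JAZ2: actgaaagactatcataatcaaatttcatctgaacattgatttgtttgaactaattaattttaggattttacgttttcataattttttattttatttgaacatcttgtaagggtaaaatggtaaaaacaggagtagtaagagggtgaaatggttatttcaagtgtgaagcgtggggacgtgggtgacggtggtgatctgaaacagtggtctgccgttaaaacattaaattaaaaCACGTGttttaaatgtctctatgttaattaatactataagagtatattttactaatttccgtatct
JAZ3: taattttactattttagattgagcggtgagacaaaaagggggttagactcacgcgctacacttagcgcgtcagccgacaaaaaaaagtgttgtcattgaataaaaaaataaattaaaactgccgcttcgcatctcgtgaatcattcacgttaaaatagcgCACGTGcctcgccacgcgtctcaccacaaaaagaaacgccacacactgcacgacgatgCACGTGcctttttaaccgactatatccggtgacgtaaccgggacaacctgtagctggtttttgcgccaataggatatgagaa
JAZ7: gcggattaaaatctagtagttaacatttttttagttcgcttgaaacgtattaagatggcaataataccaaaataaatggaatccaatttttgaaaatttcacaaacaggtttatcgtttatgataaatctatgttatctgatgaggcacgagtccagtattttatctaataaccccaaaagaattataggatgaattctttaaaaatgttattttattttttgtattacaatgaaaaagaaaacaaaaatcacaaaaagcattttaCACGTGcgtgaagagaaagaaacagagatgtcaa
JAZ8: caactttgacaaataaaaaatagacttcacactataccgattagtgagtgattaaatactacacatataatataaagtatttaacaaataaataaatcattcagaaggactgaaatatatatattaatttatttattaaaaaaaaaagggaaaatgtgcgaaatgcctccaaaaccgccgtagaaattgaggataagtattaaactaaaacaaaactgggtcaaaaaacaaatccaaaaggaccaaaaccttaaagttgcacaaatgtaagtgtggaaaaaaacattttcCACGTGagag
JAZ6: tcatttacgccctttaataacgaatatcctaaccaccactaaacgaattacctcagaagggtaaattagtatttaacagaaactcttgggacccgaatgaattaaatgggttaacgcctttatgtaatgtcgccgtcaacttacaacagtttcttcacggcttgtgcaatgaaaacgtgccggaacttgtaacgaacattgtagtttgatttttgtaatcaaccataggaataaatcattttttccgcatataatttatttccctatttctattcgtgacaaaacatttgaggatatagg
JAZ9: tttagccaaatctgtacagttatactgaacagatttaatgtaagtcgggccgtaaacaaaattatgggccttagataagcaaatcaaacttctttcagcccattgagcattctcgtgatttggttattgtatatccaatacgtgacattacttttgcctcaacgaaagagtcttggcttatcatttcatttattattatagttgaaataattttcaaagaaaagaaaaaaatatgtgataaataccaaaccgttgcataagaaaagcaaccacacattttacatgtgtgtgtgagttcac

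The G-box began 66 bases before the gene in JAZ2, 34 bases before it in JAZ7 and 10 bases before it in JAZ8. JAZ3 held 2 copies, 140 and 82 bases before the gene. The motif reads the same on both strands. It was present in 4 of the 10 JAZ windows. Among the 27443 windows of equal length before protein-coding genes of the nuclear chromosomes, members included, it was present in 7.09%. Within 1000 bases it was present in 8 of 10 members, all except JAZ10 and JAZ12, against 14.8% of windows. The letters CGCGT, the core bound by the calmodulin-binding CAMTA factors, were searched on both strands and cannot overlap the G-box. They occurred within 300 bases of JAZ1, JAZ3 and JAZ5, 3 of 10 members against 7.89% of windows, and within 1000 bases of 6 of 10 members against 20.7%. A match is a description of the letters only.

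JAZ9 and JAZ6 supplied most JAZ transcripts in these leaves. TPM is scaled by length, so levels of different genes can be compared. Averaged over all 12 libraries, the level was 234.8 TPM for JAZ9, 126.3 for JAZ6, 69.1 for JAZ12 and 53.4 for JAZ2. JAZ3 with 23.6 TPM and JAZ1 with 23.0 TPM followed and were nearly equal. The least abundant members were JAZ7 with 5.26 TPM, JAZ5 with 4.77, JAZ10 with 3.53 and JAZ8 with 1.14. Within libraries, JAZ2 exceeded JAZ3, JAZ1 exceeded JAZ7 and JAZ10 exceeded JAZ8 in 12 of 12. JAZ6 exceeded JAZ12 in 11 libraries, JAZ5 exceeded JAZ10 in 11 and JAZ12 exceeded JAZ2 in 10. For JAZ9 over JAZ6 and JAZ3 over JAZ1 the order held in 8 libraries and for JAZ7 over JAZ5 in 7, and the difference of log2(TPM + 1) was smaller than its SD over the 12 libraries in these 3 pairs (0.68 ± 0.78, 0.35 ± 0.87 and -0.06 ± 0.82) and in JAZ12 over JAZ2 (0.51 ± 0.64). JAZ9, JAZ6, JAZ12 and JAZ2 together held 83.4% to 93.4% of the summed JAZ level in each library.

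**Figure D1:**
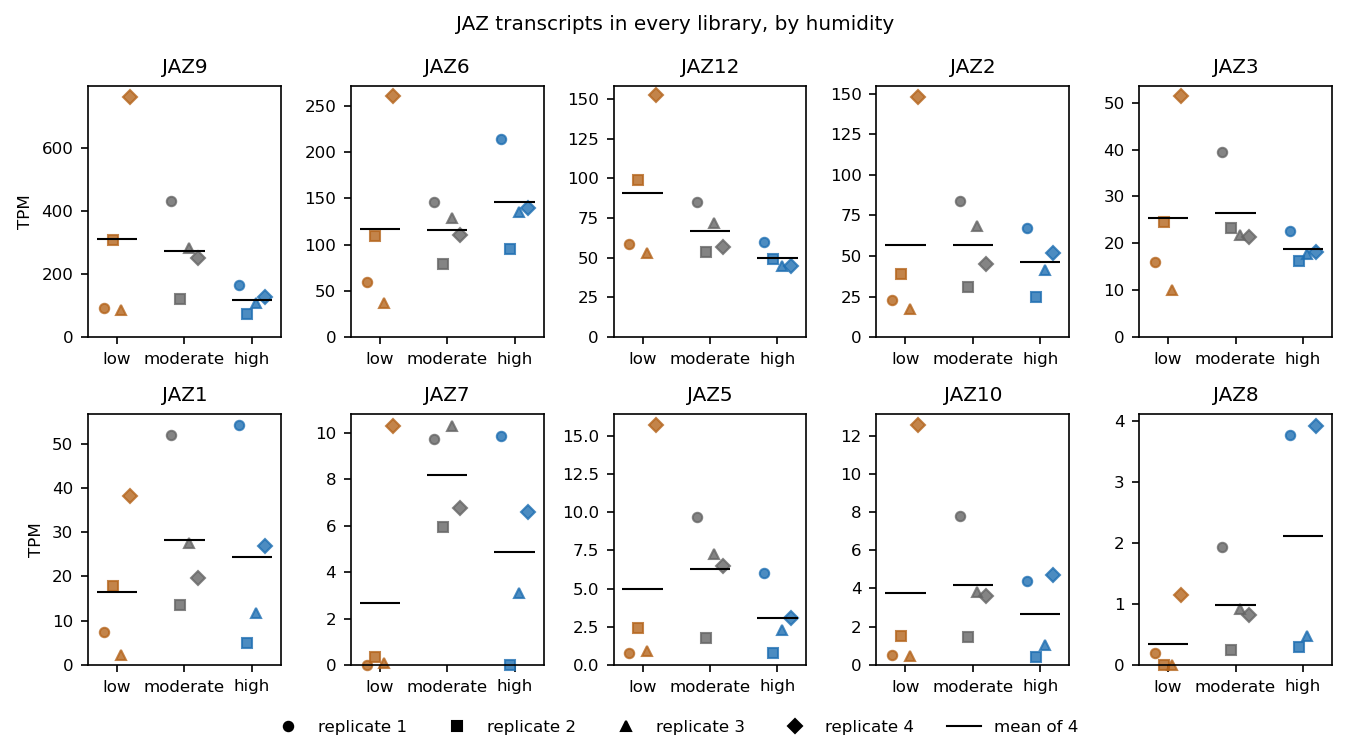
JAZ transcript levels (TPM, linear axis from 0, a separate scale for each gene) in the 12 libraries, ordered by mean level. Points are libraries, shaped by replicate number, and bars are means of 4. Low replicate 4 is the highest low humidity library for all 10 genes, and the humidities overlap in every panel.

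JAZ9 (AT1G70700, chr1:26654529-26657350 on TAIR10.1) encodes a repressor that binds MYC2. At low humidity its level was 91.1 TPM in replicate 1, 308.9 in replicate 2, 86.3 in replicate 3 and 763.3 in replicate 4. At moderate humidity it was 433.6, 120.5, 284.7 and 252.8 TPM in replicates 1 to 4, and at high humidity 165.7, 73.1, 108.7 and 129.0. The high humidity libraries lay towards the bottom of the range but overlapped both other groups, and low humidity held the highest value and 2 of the 4 lowest. The means were 312.4 ± 318 TPM (SD, n = 4) at low, 272.9 ± 128.6 at moderate and 119.1 ± 38.7 at high humidity.

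JAZ6 (AT1G72450, chr1:27273968-27276562), a close relative of JAZ5, had 59.8, 109.0, 37.3 and 260.0 TPM in low humidity replicates 1 to 4. At moderate humidity it had 146.3, 78.7, 129.2 and 110.5 TPM, and at high humidity 214.3, 94.7, 135.5 and 139.8. All groups overlapped, with the lowest and the highest value both at low humidity. The mean was 116.5 ± 100.2 TPM at low, 116.2 ± 28.9 at moderate and 146.1 ± 49.8 at high humidity.

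JAZ12 (AT5G20900, chr5:7090704-7092539), whose protein is kept stable by the ubiquitin ligase KEG, was the steadiest member. Its level was 58.7, 98.8, 52.9 and 152.7 TPM in low humidity replicates 1 to 4, 85.0, 53.4, 71.8 and 56.9 TPM at moderate humidity, and 60.0, 49.1, 44.8 and 45.0 TPM at high humidity. High humidity libraries were the lowest as a set, but high replicate 1 stood above low replicates 1 and 3 and above moderate replicates 2 and 4. The gene overlaps AT5G20910 on the other strand, which ranged from 7.08 to 10.5 TPM, and the long non-coding AT5G03235, at 0 in all libraries except high replicate 4 with 7.61 TPM. No source used here gives the strand setting, so reads of these overlapping genes cannot be told apart.

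JAZ2 (AT1G74950, chr1:28148574-28150446), known for its part in stomatal opening, had 23.0, 38.8, 17.5 and 148.2 TPM in low humidity replicates 1 to 4. At moderate humidity it ranged from 30.7 to 83.8 TPM and at high humidity from 24.9 to 67.4. Low replicate 4 stood above the other 11 libraries, and the other low humidity libraries were among the lower ones. JAZ1 (AT1G19180, chr1:6621777-6623668), the closest relative of JAZ2, had 7.38, 17.8, 2.21 and 38.1 TPM at low humidity. It ranged from 13.6 to 52.0 TPM at moderate and from 4.91 to 54.1 TPM at high humidity. For JAZ1 the highest library was high replicate 1 and the lowest low replicate 3. JAZ3 (AT3G17860, chr3:6119707-6123044), related to JAZ9 and known from the dominant insensitive mutant jai3, ranged from 9.96 to 51.5 TPM at low, 21.4 to 39.4 at moderate and 16.3 to 22.6 at high humidity. For JAZ3, both the highest and the lowest library were at low humidity.

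The 4 scarce members had levels near 0 in several libraries. JAZ7 (AT2G34600, chr2:14573030-14573952), a short repressor, was listed at 0 in low replicate 1 and had 0.34, 0.09 and 10.3 TPM in low replicates 2 to 4. At moderate humidity it had 9.73, 5.97, 10.3 and 6.76 TPM, and at high humidity 9.86, 0, 3.10 and 6.60. The moderate libraries were thus all well above 0, while 3 of 4 low humidity libraries and high replicate 2 were below 1 TPM. JAZ8 (AT1G30135, chr1:10596352-10597341), a repressor with a weak degron that resists the hormone, had 0.20, 0, 0 and 1.15 TPM at low humidity. It had 1.94, 0.24, 0.92 and 0.81 TPM at moderate and 3.76, 0.30, 0.48 and 3.92 TPM at high humidity. The 2 highest JAZ8 values were in high replicates 1 and 4, and the other high humidity libraries overlapped both groups.

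JAZ5 (AT1G17380, chr1:5955155-5957511) had 0.75, 2.44, 0.93 and 15.7 TPM in low humidity replicates 1 to 4, and ranged from 1.78 to 9.70 TPM at moderate and 0.81 to 6.01 at high humidity. JAZ10 (AT5G13220, chr5:4218786-4221077), known for splice forms that escape breakdown and damp the response, had 0.52, 1.51, 0.45 and 12.5 TPM at low humidity. It ranged from 1.44 to 7.81 TPM at moderate and 0.42 to 4.72 at high humidity. Both genes showed the same picture, with low replicate 4 highest of all 12 libraries and the other low humidity replicates towards the bottom. JAZ10 overlaps the antisense non-coding AT5G02045, which was at 0 in every library.

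None of the 10 JAZ genes was called between any of the humidities. Calls are an adjusted p under 0.05 in limma, fitted to log2(TPM + 1) of all 17368 tested genes with Benjamini-Hochberg adjustment over them. At high against moderate humidity 0 of 10 members were called, where 45.6% of all tested genes were (11.4% higher and 34.2% lower). At low against moderate humidity it was 0 of 10 where 0.674% of genes were called, and at high against low humidity 0 of 10 where 23.7% were. Without low replicate 1 the low against moderate comparison called 388 genes higher and 5217 lower, and still 0 members. At an unadjusted p under 0.05 the counts were 0, 1 (JAZ7) and 2 (JAZ8 and JAZ12) of 10 members, where 54%, 29.2% and 34.6% of all tested genes had one, so these counts were not above the background. For every member every pair of humidities overlapped between the 4 and 4 libraries, while 45.8%, 10.5% and 26.3% of all genes did not overlap in the same comparisons. These intervals are wide, so a miss of the threshold does not show that the JAZ levels were alike.

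At high against moderate humidity 8 of 10 members had a negative log2 fold change and the median was -0.47, against -0.22 over all tested genes. JAZ9 had the largest negative value, -1.11 ± 0.69 (SE), with a 95% interval of -2.64 to 0.42 and a limma adjusted p of 0.207. JAZ7 followed with -1.07 ± 0.88 (limma adjusted p = 0.342) and JAZ5 with -0.86 ± 0.73 (limma adjusted p = 0.359). JAZ7 had -0.37 without high replicate 2, in which it was listed at 0, and -1.91 with a pseudocount of 0.1, while JAZ9 ran from -1.46 to -0.84 and JAZ5 from -1.27 to -0.52 over the alternatives. JAZ10, JAZ1, JAZ3, JAZ12 and JAZ2 lay between -0.60 and -0.28. The positive members were JAZ6 with 0.30 ± 0.52 (interval -0.84 to 1.45, limma adjusted p = 0.65) and JAZ8 with 0.46 ± 0.47 (interval -0.56 to 1.48, limma adjusted p = 0.441), with 0.10 to 0.54 and 0.15 to 0.79 over the alternatives. Fitted on the moderate and high libraries alone, JAZ9 kept its value of -1.11 and had a limma adjusted p of 0.0483, where 37.2% of all genes were called lower, so that call depends on whether the low humidity libraries enter the estimate of spread.

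At low against moderate humidity 9 of 10 members had a negative value, with a median of -0.50 against -0.18 over all genes. JAZ7 stood furthest from 0, at -2.16 ± 0.88 with an interval of -4.12 to -0.19, a limma p of 0.0346 and an adjusted p of 0.146. Without low replicate 4, the value of JAZ7 was -2.99 with a limma adjusted p of 0.147, and with a pseudocount of 0.1 it was -3.89 (limma adjusted p = 0.159). JAZ1 had -1.13 ± 0.88 (limma adjusted p = 0.395), and JAZ12, with 0.33 ± 0.29 (limma adjusted p = 0.449), was the positive member.

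At high against low humidity the median of the members was 0.11, against -0.06 over all genes. JAZ12 had -0.73 ± 0.29 with an interval of -1.37 to -0.10, a limma p of 0.0278 and an adjusted p of 0.0951. Without low replicate 3, JAZ12 had -0.95 with a limma adjusted p of 0.0305, where 11% of all genes were called lower, so leaving that library out brought the gene past the threshold. JAZ8 had 1.03 ± 0.47 with an interval of 0.01 to 2.05, a limma p of 0.0478 and an adjusted p of 0.14. With a pseudocount of 0.1 JAZ8 had 2.48 (limma adjusted p = 0.0859). JAZ9 had -0.86 ± 0.69 (limma adjusted p = 0.424), which became -0.24 without low replicate 4 and -1.28 without low replicate 3. JAZ6 had 0.64 ± 0.52 (limma adjusted p = 0.426; 0.23 to 1.15 over the alternatives) and JAZ7 had 1.09 ± 0.88 (limma adjusted p = 0.43; 0.64 to 1.98). These 3 comparisons share libraries, so their values are not independent.

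**Figure D2:**
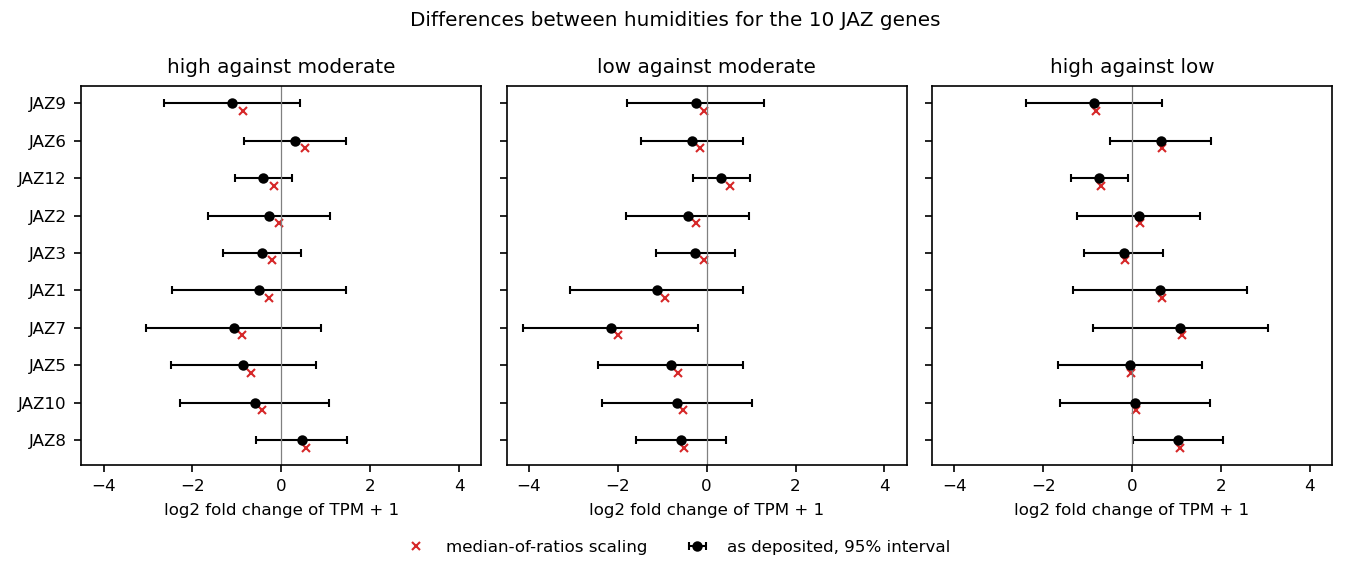
Log2 fold change of TPM + 1 for each JAZ gene in 3 comparisons of humidities. Points with bars are the limma estimates and 95% intervals from TPM as deposited, and crosses are estimates after median-of-ratios scaling. The intervals of all members reach across 0 except JAZ7 at low against moderate and JAZ8 and JAZ12 at high against low humidity, none of which passed the adjusted threshold.

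TPM has a fixed total, so a gain in abundant transcripts lowers the others. The share of 91 photosynthesis genes was 23.5% to 23.8% in the moderate libraries, 26.6% to 28.3% at high humidity and 25.4% to 31.0% at low humidity. Scaling by the median of ratios moved the all-gene median at high against moderate humidity from -0.22 to -0.02 and the JAZ median from -0.47 to -0.24, and turned the sign of none of the 30 JAZ values. The calls of all genes there went from 1981 higher and 5938 lower to 3211 higher (18.5%) and 2600 lower (15%), 33.5% in all. Leaf markers dominated, and root markers PYK10, WER and CASP1 and flower markers AP3 and PI were at most 0.51 TPM in every library (CASP1 at 0 throughout), while the root marker SCR summed with them to 19.2 to 44.6 TPM and the flower marker AG with its list to 0.42 to 3.76 TPM. The sum of the guard cell markers FAMA and MYB60 was 30.9 to 41.1 TPM at moderate, 18.8 to 27.7 at high and 19.0 to 35.9 at low humidity, and the part of this in the JAZ values was not tested.

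The JAZ genes varied far more between libraries of the same humidity than most genes did. The pooled standard deviation of log2(TPM + 1) within a humidity had a median of 0.97 over the members and 0.19 over all tested genes. It was largest for JAZ7 at 1.32, more than for 99.4% of genes, and JAZ1 at 1.29, more than for 99.3%. JAZ12, at 0.46, was the least variable member and still above 92.4% of genes. The median spread of the members was 1.42 at low, 0.57 at moderate and 0.70 at high humidity, where all genes had 0.21, 0.18 and 0.15. At low humidity the highest library exceeded the lowest 27.9-fold for JAZ10, 20.9-fold for JAZ5, 17.3-fold for JAZ1 and 8.84-fold for JAZ9, but 2.89-fold for JAZ12.

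The same libraries were high or low for nearly all members. Low replicate 4 was the highest low humidity library for 10 of 10 JAZ genes, where it was highest for 13.9% of all tested genes. Low replicate 1 was highest for 62.9% of all tested genes, which leaves less for the other low humidity libraries, and for 0 of 10 JAZ genes. Moderate replicate 1 was highest in its group for 9 of 10 (17.4% of all genes), and high replicate 1 for 8 of 10 (30.6%). At the other end stood low replicate 3, lowest for 7 of 10 members (36.3% of all genes), moderate replicate 2 for 9 (18.8%) and high replicate 2 for 9 (24.4%). Summed over the 10 genes, the JAZ level was 257.4, 602.1, 207.7 and 1454 TPM in low humidity replicates 1 to 4. It was 869.3, 329.6, 625.9 and 523.8 TPM at moderate and 608.1, 264.5, 366.8 and 429.0 TPM at high humidity. The groups overlapped, and 1 low humidity library held the highest sum and another the lowest.

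**Figure D3:**
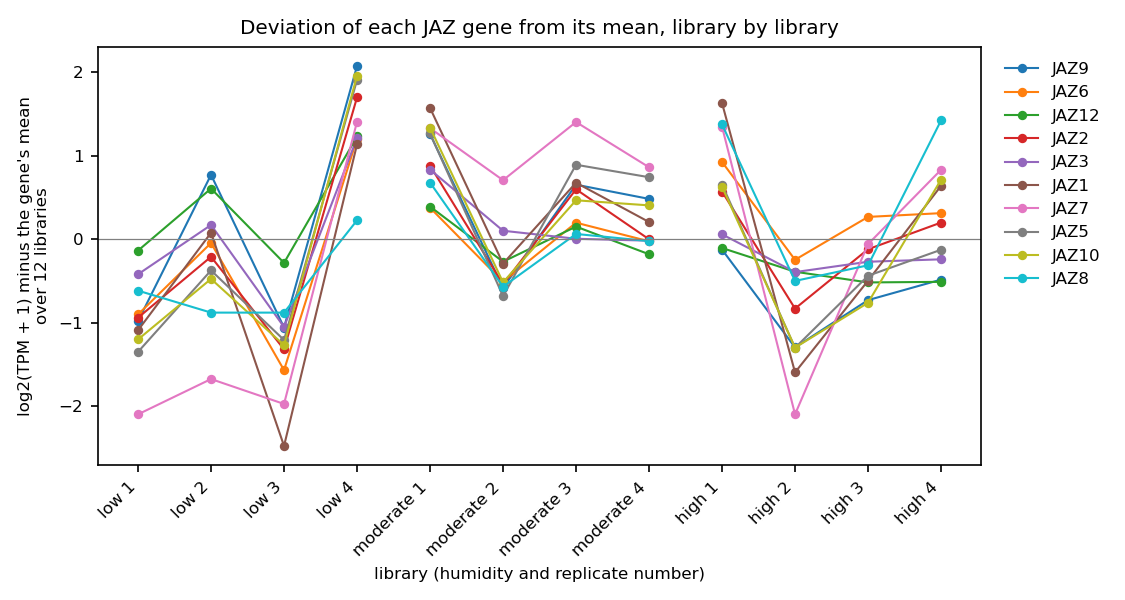
Deviation of log2(TPM + 1) of each JAZ gene from its own mean over 12 libraries (vertical axis, log2 units), by library; lines join the replicates of a humidity for the eye only. Most genes move together, up in low replicate 4 and moderate replicate 1, up in high replicate 1 except JAZ9 and JAZ12, and mostly down in low replicates 1 and 3 and high replicate 2.

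Over the 12 libraries the 45 pairs of members had Pearson correlations of log2(TPM + 1) from -0.00 (JAZ8 with JAZ12) to 0.95 (JAZ5 with JAZ10), with a median of 0.80. Spearman's rho ran from 0.08 to 0.95 with a median of 0.81. Without low replicates 4 and 3, the libraries farthest from the median JAZ level, the Pearson values ran from -0.17 to 0.94 with a median of 0.72. For deviations from the humidity means the correlations were 0.50 to 0.97 with a median of 0.89, and all 45 were above 0. These are descriptions, since the genes share libraries and their fixed total, and samples within a humidity are few.

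While the levels overlapped, the proportions of JAZ9 and JAZ6 set the high humidity libraries apart. JAZ9 was the most abundant member in all 8 low and moderate humidity libraries and JAZ6 in all 4 high humidity libraries. The ratio of JAZ9 to JAZ6 in TPM was 1.52, 2.83, 2.31 and 2.94 in low humidity replicates 1 to 4. It was 2.96, 1.53, 2.20 and 2.29 in moderate humidity replicates, and 0.773, 0.772, 0.802 and 0.922 in high humidity replicates. The high humidity ratios were all below 1 and did not overlap those of either other group, and low and moderate humidity overlapped. The mean was 2.40 ± 0.646 (SD, n = 4) at low, 2.25 ± 0.586 at moderate and 0.817 ± 0.0715 at high humidity. A ratio within a library does not depend on the scaling of that library, and it shows unequal change, not which of the genes moved. The pair was chosen after its values were seen, so no test is given.

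**Figure D4:**
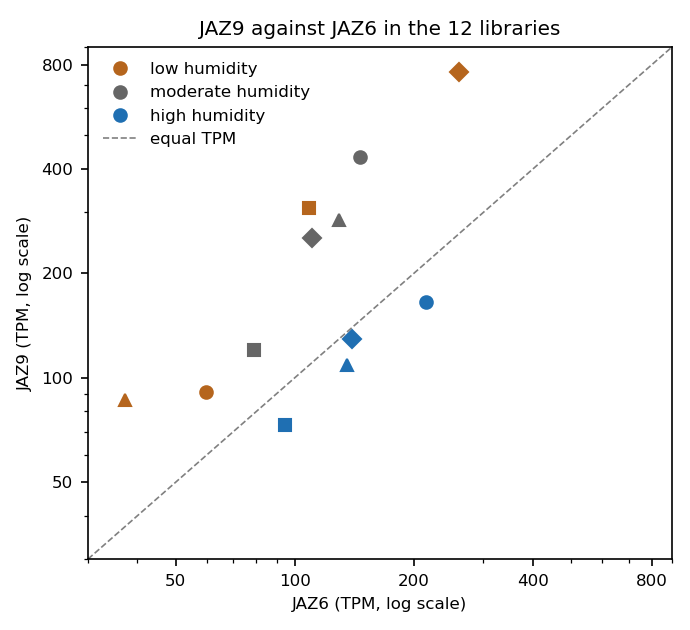
JAZ9 against JAZ6 in TPM, both axes on a log scale, for the 12 libraries; colour gives the humidity, shape the replicate number (circle 1, square 2, triangle 3, diamond 4), and the dashed line equal levels. All 4 high humidity libraries lie under the line and the other 8 above it, at JAZ6 levels that overlap.

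As shares of the summed JAZ level, JAZ9 held 45.2 ± 8.16% (SD, n = 4) at low, 45.1 ± 5.95% at moderate and 28.6 ± 1.41% at high humidity. JAZ6 held 19.3 ± 2.62%, 20.6 ± 2.90% and 35.2 ± 1.85%. The high humidity shares of JAZ9 ran from 27.3% to 30.1%, below the 35.4% of the lowest other library, and those of JAZ6 from 32.6% to 37.0%, above the 23.9% of the highest other library. Of the 45 log2 ratios of TPM + 1 between members, 9 (20.0%) did not overlap between high and moderate humidity, where 8.54% of ratios of a member to a gene outside the family did not. JAZ6 and JAZ8 were each in 4 of these pairs, JAZ9 in 3, and JAZ1, JAZ3 and JAZ12 in 0. Between low and moderate humidity 11 ratios (24.4%) did not overlap, against 0.702% of member-to-other ratios, and 7 of the 11 involved JAZ7. JAZ7 had 0, 0.34 and 0.09 TPM in low replicates 1 to 3, so its ratios there rest on values near 0. The same limit holds for JAZ8, which reached 1 TPM in 4 of the 12 libraries. Between high and low humidity 9 (20.0%) did not overlap, against 4.65%, and 5 of them involved JAZ9. The members moved together within a humidity (median correlation of deviations 0.89). Movement of equal size in 2 members drops out of their ratio but can stay in a ratio to another gene. The members did not all move by equal amounts. At high humidity the SD of the log2 ratio was 1.36 for JAZ3 over JAZ7 and 0.124 for JAZ3 over JAZ12. How far the shared movement shaped these shares was not tested. The member-to-other shares are no like-for-like background, and the excess over them is not read as a result. Pairs also share genes, so these shares are descriptions.

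By correlation of log2(TPM + 1) over the 12 libraries, the genes most like JAZ9 were AOC1, allene oxide cyclase of jasmonate synthesis (r = 0.98), MYC2 (0.98) and IAR3, an amidohydrolase of jasmonate conjugates (0.97). Those most like JAZ8 were the oxygenase gene AT2G38240 (0.98), the calmodulin-like CML38 (0.93) and CYP94C1, which oxidises the active hormone (0.92). JAZ1 came closest to the oxygenase gene AT5G05600 (0.96), RGL3, a DELLA protein gene (0.90), and ILL6, an amidohydrolase related to IAR3 (0.90). JAZ2 came closest to the MATE transporter gene AT1G61890 (0.98) and JAZ10 to the phosphotriesterase family gene AT3G51450 (0.97). Some genes were among the 3 nearest of several members. The DNA glycosylase family gene AT1G75230 was so for JAZ2 (0.977), JAZ5 (0.962) and JAZ10 (0.955). ILL6 was also near JAZ10 (0.948), AT1G61890 near JAZ6 (0.925) and AT5G05600 near JAZ7 (0.867). JAZ12 lay nearest to UBQ11, a polyubiquitin gene (0.97), and JAZ3 to the cytokinin oxidase gene CKX5 (0.96). JAZ5 lay nearest to AT1G53885 and AT1G53903, which had the same correlation (0.97), and JAZ6 to the hydrolase gene AT2G39420 (0.94). The weakest nearest match was that of JAZ7, with ERF-1 (AT4G17500, 0.88).

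Among the partners of the JAZ proteins, several genes passed the test at high against moderate humidity. Of 9 genes of perception and corepression 2 were called higher and 5 lower with TPM as deposited, where 11.4% and 34.2% of all genes were, but 4 higher and 0 lower after median-of-ratios scaling, where 18.5% and 15% were. COI1, the receptor, went from 32.7 ± 2.61 TPM (SD, n = 4) at moderate to 24.7 ± 2.03 at high humidity, a log2 fold change of -0.39 (limma adjusted p = 0.0101). After scaling COI1 had -0.16 and a limma adjusted p of 0.197. NINJA, the adaptor that carries TOPLESS to JAZ proteins, had -0.43 (limma adjusted p = 0.00318), and -0.20 after scaling (limma adjusted p = 0.122). The corepressor gene TPR3 had 0.47 (limma adjusted p = 0.00803) and was called under both scalings. TPL had -0.03 (limma adjusted p = 0.722) and 0.20 after scaling (limma adjusted p = 0.0311).

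Of 7 transcription factor genes whose products JAZ proteins bind, 3 were called lower and 0 higher, where 34.2% and 11.4% of all genes were. After scaling 2 were lower and 1 higher, beside 15% and 18.5% of all genes, since MYC3 lost its call and JAM3, a repressing bHLH factor, gained one (0.23, limma adjusted p = 0.0267, from 0.00 as deposited). MYC4 fell from 57.4 ± 15.0 to 25.8 ± 4.19 TPM, -1.10 ± 0.17 (SE) with a limma adjusted p of 2.87e-04. NIG1 (AT5G46830), a bHLH relative of MYC2, fell from 2.48 ± 0.751 to 0.285 ± 0.0995 TPM, -1.41 ± 0.23 (limma adjusted p = 3.39e-04). Both also passed in all 18 alternatives. MYC3 had -0.47 (limma adjusted p = 0.00525) and -0.24 after scaling (limma adjusted p = 0.127). MYC2, the main activator, had 49.7, 10.4, 32.5 and 23.5 TPM at moderate and 13.3, 3.60, 6.49 and 9.90 TPM at high humidity. The groups overlapped by 1 library of each, and the value of -1.62 ± 0.83 did not pass (limma adjusted p = 0.136). Fitted on these groups alone, MYC2 had a limma adjusted p of 0.0311. JAM1, another such repressor, had -0.74 (limma adjusted p = 0.0627), and its limma adjusted p was 0.0127 without low replicate 3 and 0.0133 without low replicate 4.

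Of 13 synthesis genes 1 was called higher and 4 lower, and after scaling 1 higher and 1 lower. The lower counts were below the share over all genes, 34.2% as deposited and 15% after scaling. LOX6, a lipoxygenase, rose from 15.0 ± 1.27 to 22.2 ± 2.52 TPM, 0.53 ± 0.10 (limma adjusted p = 0.00103), and AOC4 fell by 0.87 on the log2 scale (limma adjusted p = 5.74e-04), and both passed under both scalings. ACX1 (-0.95, limma adjusted p = 0.039), AOC2 (-2.46, limma adjusted p = 0.0439) and JAR1 (-1.33, limma adjusted p = 0.047) were also called lower, and each lost its call after scaling with values of -0.72 (limma adjusted p = 0.145), -2.22 (limma adjusted p = 0.0693) and -1.10 (limma adjusted p = 0.112). AOC2 and JAR1 also lost it without low replicate 2 or without any single moderate or high library, and ACX1 without low replicate 2, moderate replicate 1 or 3 or any single high library. JAR1 had a limma adjusted p of 0.0527 with no filter. LOX2 had -1.31 (limma adjusted p = 0.0928), AOS -1.22 (limma adjusted p = 0.0961), LOX3 -1.12 (limma adjusted p = 0.449) and OPR3 -0.47 (limma adjusted p = 0.761). Without low replicate 4 the limma adjusted p was 0.0216 for LOX2 and 0.014 for AOS. AOC2 was named after its values were seen.

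Of 7 catabolism genes 0 were called by limma, where 45.6% of all tested genes were. An unadjusted limma p under 0.05 was found for 0 of the 7, where 54% of all tested genes had one. CYP94C1 had 55.1, 0.75, 6.07 and 17.9 TPM in high humidity replicates 1 to 4 and 1.29 to 6.04 at moderate humidity, with a value of 1.61 ± 0.98 (limma adjusted p = 0.2). Without high replicate 2 it had 2.48 and a limma adjusted p of 0.0333. IAR3 had -1.36 (limma adjusted p = 0.152), and its limma adjusted p was 0.0261 with these groups alone and 0.0353 without low replicate 4. CYP94B3 had -0.62 (limma adjusted p = 0.57). Of 7 response genes 3 were called lower and 0 higher, where 34.2% and 11.4% of all genes were. After scaling 2 were lower and 0 higher, beside 15% and 18.5% of all genes. ANAC019 fell by 1.90 (limma adjusted p = 0.00361) and CORI3 by 2.13 (limma adjusted p = 0.0255) on the log2 scale, and JR1 had -1.08 (limma adjusted p = 0.0402, and 0.123 after scaling). JR1 also missed the threshold without low replicate 2, moderate replicate 1 or 4 or any single high library. CORI3 missed the threshold when any of 5 single libraries was left out, moderate replicates 1 and 3 and high replicates 2, 3 and 4, with limma adjusted p from 0.0531 to 0.0618. VSP2, a storage protein gene long used as a jasmonate marker, ranged from 1.51 to 10.8 TPM at moderate and 0.14 to 0.97 at high humidity. Its groups did not overlap, and its value of -2.13 did not pass (limma adjusted p = 0.134). Low replicate 4 had 68.4 TPM of VSP2, and without that library the limma adjusted p was 0.00734. TAT3 had -0.47 (limma adjusted p = 0.698).

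JAZ11 (AT3G43440), a family member outside the 10, fell from 10.7 ± 1.21 to 7.32 ± 0.776 TPM, -0.48 ± 0.11 (limma adjusted p = 0.00414). It was the single call among 5 other tested genes of the TIFY list, where 34.2% of all tested genes were called lower and 11.4% higher. AT3G22275 of the same list had 5.16 ± 2.74 TPM at moderate and 1.16 ± 0.717 at high humidity, a value of -1.42 (limma adjusted p = 0.111). Its limma adjusted p was 0.0354 with these groups alone and 0.0399 without low replicate 4. JAZ4 (AT1G48500) was at most 0.60 TPM in every library and was not tested. At low against moderate humidity 0 genes of these 6 lists were called by limma, where 0.674% of all tested genes were. An unadjusted limma p under 0.05, which 29.2% of all genes had, was found for 4 of 9 perception, 2 of 7 transcription factor and 1 of 13 synthesis genes. Scaling brought 1 perception gene, ASK1, past the threshold, where 0.702% of all genes were called higher.

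**Figure D5:**
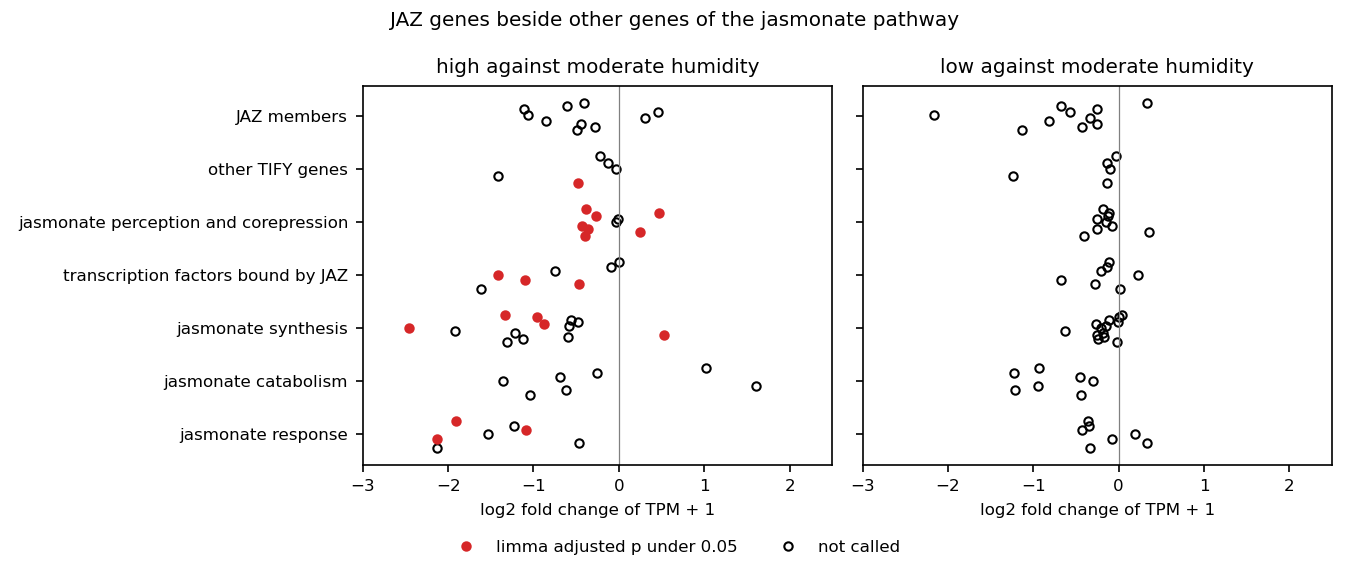
Log2 fold change of TPM + 1 at high (left) and low (right) against moderate humidity for the 10 JAZ genes and 6 other lists of the jasmonate pathway, TPM as deposited; each point is a gene and filled points had a limma adjusted p under 0.05. The 10 JAZ genes of the first list have no filled point in either panel, while JAZ11, among the other TIFY genes, is filled on the left.

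The libraries in which JAZ genes were high were also those in which the genes of hormone turnover were high. Low replicate 4, moderate replicate 1 and high replicate 1 were each the highest library of their group for 12 of 13 synthesis genes and 7 of 7 catabolism genes. In the response list, low replicate 4 was highest for 7 of 7 and moderate replicate 1 for 5 of 7, but high replicate 1 for 1 of 7. For perception and corepression the same libraries were highest for 2, 1 and 3 of 9 genes. For the transcription factors bound by JAZ proteins they were highest for 5, 4 and 5 of 7 genes. Over all tested genes these libraries were highest for 13.9%, 17.4% and 30.6%. The within-humidity spread had a median of 0.97 for synthesis, 1.34 for catabolism and 0.99 for response genes, beside 0.13 for perception and 0.30 for the transcription factors.

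Touch and wound genes were read as a comparison, because touch and wounding are known to raise JAZ transcripts. Of 8 tested genes, 3 were called higher and 0 lower at high against moderate humidity by limma, where 11.4% and 34.2% of all tested genes were. TCH4, a xyloglucan-modifying enzyme gene, rose from 7.78 ± 7.33 to 814.8 ± 193 TPM (limma adjusted p = 1.52e-05), and TCH2 (2.19, limma adjusted p = 1.16e-07) and TCH3 (1.68, limma adjusted p = 0.00711), both of calmodulin-like proteins, rose with it. WRKY40 had 0.06 (limma adjusted p = 0.936) and ZAT12 had 0.84 (limma adjusted p = 0.141). In this list low replicate 4, moderate replicate 1 and high replicate 1 were the highest libraries of their groups for 3, 2 and 6 of 8 genes. The part of touch or wounding in the JAZ values was not tested.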

How the data were processed

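Leaf RNA of 12 libraries was compared. Per the labels' protocols, libraries were made with a TruSeq RNA kit. The submitters' processing notes name fastp, HISAT2, RSEM and the build TAIR10, without versions, roles or strand settings. The title of the table calls its numbers raw counts, but the deposited numbers are TPM: they have decimals, and a library adds up to 998920 to 999399. Depth cannot be read from TPM and is unknown for every library. A further 3 columns, the authors' group means, stayed out.

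Genes reaching 1 TPM in 4 or more libraries were transformed to log2(TPM + 1). The test was limma 3.58.1 (R 4.3.3) with a mean per humidity, trended and robust moderation and 9 residual degrees of freedom. This scale understates changes of low genes. P-values were adjusted by Benjamini-Hochberg over all 17368 tested genes, with a threshold of 0.05. The members and the gene lists were chosen with earlier results of these data known. Named genes are the members, genes marked in each list, up to 3 further genes of a list with the smallest adjusted p, and the 3 nearest genes by correlation. CUL1, TPR4 and other named genes not described singly are counted in their lists. Libraries of 1 humidity correlated at 0.960 to 0.985. Replicate numbers were not used as pairs in the main fit. In a simulation of high against moderate humidity (17368 genes, 200 changed), 55.2% of genes changed 1.5-fold, 88.1% changed 2-fold and 95.5% changed 4-fold were recovered, and 6.47% of calls were false. These rates are for genes at large, whose spread within a humidity had a median of 0.19. The JAZ members had a median of 0.97, so the rates do not give the recovery of a JAZ change. Sequences, positions and neighbouring genes come from the TAIR10.1 assembly of RefSeq, and the table carries no coordinates. Alternatives were another pseudocount (0.1), no filter, median-of-ratios scaling, a replicate block, the compared groups alone, plain moderation and leaving out each of the 12 libraries.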

Additional observations from a re-analysis of the deposited data

Results flagged for a closer look

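Of 30 groups of 4 libraries (10 JAZ genes at 3 humidities), 5 held a library far from the other 3 in plain TPM. Chance meets the rule in about 1 in 20 groups where values are normally distributed. That was not shown for TPM without logs, so the 5 are not set against that rate. The genes share libraries, so the 5 are not independent. In low replicate 4, JAZ2 had 148.25 TPM beside 38.82 in the nearest library, JAZ5 had 15.69 beside 2.44, JAZ7 had 10.32 beside 0.34 and JAZ10 had 12.54 beside 1.51. In moderate replicate 1, JAZ3 had 39.44 TPM beside 23.35 in the nearest library.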

How the results depend on the processing

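Of 540 recomputed JAZ values (30 values, 18 alternatives each), 519 kept their direction and their side of the threshold, 3 passed it newly and 18 turned sign. The new calls were JAZ9 at high against moderate humidity with these groups alone (1 member lower, limma adjusted p = 0.0483), JAZ8 at high against low with the replicate block (1 member higher, limma adjusted p = 0.0368, where 11.9% of all genes were called higher) and JAZ12 at high against low without low replicate 3 (limma adjusted p = 0.0305), so that leaving out single libraries gave 0 to 1 members lower there. Leaving out single libraries gave these ranges for values that turned sign: JAZ1 at high against moderate -1.02 to 0.05, JAZ3, JAZ6 and JAZ9 at low against moderate -0.66 to 0.09, -0.85 to 0.08 and -0.88 to 0.17, and JAZ2, JAZ3, JAZ5 and JAZ10 at high against low -0.23 to 0.78, -0.53 to 0.22, -0.41 to 0.67 and -0.27 to 0.80. JAZ5 at high against low was 0.07 with a pseudocount of 0.1. The cause was not tested for any of these.

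Counts over all genes at low against moderate humidity were least stable. The 77 higher and 40 lower calls became 46 and 13 with no filter, 122 and 6 after scaling, 25 and 1 with the replicate block and 38 and 6 with the groups alone, and 24 lower with plain moderation. Leaving out single libraries gave 18 to 388 higher and 1 to 5217 lower, with both maxima without low replicate 1. Scaling gave 3211 higher and 2600 lower at high against moderate humidity. Same-numbered libraries correlated at -0.319 to 0.241, with 4 of 12 pairs over 0.1 and 3 of 12 libraries closest to their own number. These correlations over all tested genes showed no clear pairing by number, but cannot exclude one. Replicate 1 was highest for 9 of 10 JAZ genes at moderate and 8 of 10 at high humidity. Replicate 2 was lowest for 9 of 10 in both. At low humidity it was replicate 4 that was highest, for 10 of 10, and replicate 3 lowest, for 7 of 10. With the replicate block, the limma adjusted p at high against moderate humidity was 0.0586 for CORI3, 0.0722 for JAR1, 0.0661 for ACX1 and 0.056 for AOC2, none of them then called, and 0.0217 for ZAT12, then called higher.

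Outside the JAZ genes, 23 of 45 named genes were called at high against moderate humidity, where 45.6% of all tested genes were. Of the 23, 13 kept the call in all 18 alternatives. Some of the 45 were named for a small adjusted p in this same comparison, so these counts are not read as a result. After scaling TPL had 0.20, JAM2 0.11 and JAM3 0.23, against -0.03, -0.09 and 0.00 as deposited. Leaving out single libraries turned TPL (-0.05 to 0.00), JAM2 (-0.23 to 0.03), JAM3 (-0.03 to 0.05), CYP94B3 (-1.09 to 0.16) and WRKY40 (-0.33 to 0.39). With 4 libraries per humidity and depth unknown, JAZ differences smaller than their intervals were not detectable.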
